A study of Homo sapiens with 18 samples.

Results

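Nuclear oxidative phosphorylation subunits are the proteins of the mitochondrial respiratory chain and of ATP synthase whose genes lie in the cell nucleus. They were followed here in SNT-8, SNT-16 and SNK-10, lines of natural killer (NK) and T lymphocytes. Members were taken by gene symbol: NDUFA, NDUFB, NDUFC, NDUFS and NDUFV genes for complex I, SDHA to SDHD for complex II, UQCR genes and CYC1 for complex III, CYCS for cytochrome c and COX4 to COX8 genes for complex IV. For complex V, symbols beginning ATP5F1, ATP5MC, ATP5ME, ATP5MF, ATP5MG, ATP5PB, ATP5PD, ATP5PF or ATP5PO were taken. Other ATP5 genes, such as ATP5IF1, were not members. Pseudogenes, read-through genes and assembly factors were left out. This gave 81 genes of the 21662 in the deposited tables, with 37 in complex I, 4 in complex II, 10 in complex III, 1 for cytochrome c, 13 in complex IV and 16 in complex V. UQCRHL and COX7A1 were too low to be tested, and 79 members entered the tests.

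Each line was exposed for 12 h to icaritin, a prenylated flavonoid of Epimedium plants, or to the solvent DMSO, with 3 replicates in each of the 6 groups and 18 libraries in all. The labels give all lines as wild type. The dose of icaritin is not given in the sources used here, and nothing in the labels says whether replicates were separate cultures, so the p-values rest on the spread of these libraries alone, which may be technical. RNA was measured in bulk, so fewer cells of a type and less RNA per cell cannot be told apart, and no protein was measured. The libraries held 9526431 to 10100453 expected counts, the estimated fragments assigned to genes. Of 20 NK and T cell markers listed in the tables, 20 reached 1 CPM (counts over the library total, rescaled so that libraries compare) in at least 1 DMSO library. The B cell markers MS4A1, CD79A, CD79B and CD22 stayed below this level, while the B cell markers PAX5 and EBF1 reached it.

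The respiratory chain passes electrons from NADH, at complex I, and from succinate, at complex II, through ubiquinone to complex III, then through cytochrome c to complex IV, where oxygen is reduced. Complexes I, III and IV pump protons across the inner mitochondrial membrane, and complex V, the ATP synthase, uses the returning protons to make ATP. Subunits encoded in the nucleus are imported and assembled with subunits encoded in mitochondrial DNA. The mRNAs encoded in mitochondrial DNA were not analysed here.

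Promoter sequence is shown for 4 genes on which the results turn: ATP5MC1, with the largest fall among the members; CYCS, the gene of cytochrome c; COX7A2L, with the largest rise among members above 10 CPM; and SDHA, higher after icaritin in each line. Each is the 250 bases before an annotated start in RefSeq on GRCh38.p14, written 5′ to 3′ on the strand of the gene, with matches of the searched motifs in capitals. The ATP5MC1 window is chr17:48892537-48892786 on the plus strand, and its capitals mark 4 CCAAT boxes and a cAMP response element (CRE, TGACGTCA).
ATP5MC1: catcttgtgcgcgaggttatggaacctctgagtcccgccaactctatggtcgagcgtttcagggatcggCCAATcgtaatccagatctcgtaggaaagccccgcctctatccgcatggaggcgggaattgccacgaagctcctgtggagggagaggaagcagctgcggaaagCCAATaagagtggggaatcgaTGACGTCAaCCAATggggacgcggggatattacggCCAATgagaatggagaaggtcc
The CYCS window is chr7:25125261-25125510 on the minus strand, and its capitals mark 2 CCAAT boxes, of which the first is on the other strand.
CYCS: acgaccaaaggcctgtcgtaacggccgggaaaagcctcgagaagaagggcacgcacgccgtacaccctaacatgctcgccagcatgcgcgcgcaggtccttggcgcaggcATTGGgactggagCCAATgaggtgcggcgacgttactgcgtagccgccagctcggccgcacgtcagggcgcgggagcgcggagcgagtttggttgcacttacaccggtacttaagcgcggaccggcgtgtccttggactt
The COX7A2L window, at the more downstream of 2 annotated starts, is chr2:42361218-42361467 on the minus strand and holds 1 CCAAT box.
COX7A2L: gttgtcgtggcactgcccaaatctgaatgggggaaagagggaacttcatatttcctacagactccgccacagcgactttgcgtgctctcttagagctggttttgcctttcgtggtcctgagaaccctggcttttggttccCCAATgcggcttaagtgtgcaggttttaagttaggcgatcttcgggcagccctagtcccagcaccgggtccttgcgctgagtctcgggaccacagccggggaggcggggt
The SDHA window is chr5:218070-218319 on the plus strand, and its capitals mark 4 copies of the NRF1 motif (GCGCA, any base, then GCGC). These copies begin 166, 117, 68 and 19 bases before the start.
SDHA: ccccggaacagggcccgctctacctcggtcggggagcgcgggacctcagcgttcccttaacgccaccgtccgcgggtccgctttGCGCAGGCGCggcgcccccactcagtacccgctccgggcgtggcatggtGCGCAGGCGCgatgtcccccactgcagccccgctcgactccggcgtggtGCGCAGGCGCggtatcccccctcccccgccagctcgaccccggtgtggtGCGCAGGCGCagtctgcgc

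Of the 81 members, 65 had such a window and 16 had none in the table, and genes with several starts gave 78 windows. Motifs were searched on both strands. The NRF1 motif, bound by a factor known for its part in the transcription of respiratory chain genes, was in 16.7% of the member windows, against 8.6% of the windows of tested genes and 5.1% of all windows. The ETS motif CCGGAAG, bound by the GABP factor among others, was in 23.1% of member windows, against 13.7% of the windows of tested genes and 8.5% of all windows. For the YY1 motif ATGGCGGC the shares were 3.8%, 1.9% and 1.3%, and for the E-box CACGTG, bound by MYC among others, they were 7.7%, 7.9% and 6.3%. The ATF4 motif TGATGNAAT was in 0 of the 78 member windows, in 0.5% of the windows of tested genes and in 0.9% of all windows. CRE and CCAAT were added after the sequences above had been seen; CRE was in 5.1% of member windows, against 2.4% of the windows of tested genes and 1.6% of all windows, and for CCAAT the shares were 32.1%, 33.5% and 32.0%. Members lower after icaritin in each line gave 25 windows from 18 genes, of which 4 (16%) held the NRF1 motif and 3 (12%) the ETS motif. The other members gave 53 windows from 47 genes, of which 9 (17.0%) and 15 (28.3%) held them. These are few windows, and some genes gave several, so the shares are not a comparison of independent genes. These matches describe letters in the windows and no binding was measured.

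More members fell than rose after icaritin in each line, and the falls were small. Members took 0.738% to 0.772% of the expected counts of SNT-8 libraries after icaritin, against 0.802% to 0.824% under DMSO. In SNK-10 they took 0.670% to 0.688% after icaritin, against 0.735% to 0.755% under DMSO, and in SNT-16 0.752% to 0.776% against 0.796% to 0.809%. The 2 treatments did not overlap in any line. These shares are of totals that include mitochondrial rRNA, whose part was larger with icaritin in all 3 lines. In SNK-10 the rRNA part was 5.02% to 5.60% with icaritin and 1.64% to 1.69% under DMSO. How far the larger rRNA part lowered the shares of the members was not tested, so these shares do not rank the lines.

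By edgeR's quasi-likelihood test at an adjusted p under 0.05, with p-values adjusted over all 14396 tested genes, 39 of 79 members were lower and 7 higher in SNT-8, while 25.0% of all tested genes were lower and 24.0% higher. In SNK-10, 27 members were lower and 8 higher, against a background of 24.0% and 24.4%. In SNT-16, 28 members were lower and 5 higher, against 20.8% and 21.2%. The higher members numbered 5 in SNK-10 without its icaritin replicate 3, and 3 in SNT-16 without its icaritin replicate 2. Expressed as shares of the 79 members, the lower ones made up 49.4%, 34.2% and 35.4% in SNT-8, SNK-10 and SNT-16, and the higher ones 8.86%, 10.1% and 6.33%. The median log2 fold change over the members was -0.15 in SNT-8, -0.10 in SNK-10 and -0.09 in SNT-16, while over all tested genes it was 0.02, 0.01 and 0.02. On the average of the 3 lines, 42 members were lower and 11 higher, where 30.0% of all genes were lower and 31.7% higher. On the same average and threshold, 3 members changed by at least 1.5-fold, namely COX7A2L, ATP5MC1 and the low-count ATP5MGL, against 13.6% of all genes. In single lines 3, 2 and 2 members did so in SNT-8 (CYCS, COX7A2L and ATP5MC1), SNK-10 and SNT-16 (COX7A2L and ATP5MC1 in both), against 16.1%, 15.9% and 11.3% of all genes.

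In each of the 3 lines 23 members were lower, which is 29.1% of those tested against 14.3% of all genes. They were NDUFB10, NDUFB4, NDUFC1, NDUFC2, NDUFS6, NDUFV2 and NDUFV3 of complex I, UQCR10 and UQCRFS1 of complex III, CYCS, COX7B of complex IV, and 12 genes of complex V. Higher in each line were 3 members, NDUFS4, SDHA and COX7A2L, which is 3.80% against 13.0% of all genes. When each replicate was left out in turn, the members lower in each line numbered from 19 to 23 and those higher in each line 2 or 3. Libraries of the 2 treatments did not overlap in any of the 3 lines for 23 members on the lower side and 3 on the higher side, against 15.9% and 14.3% of all genes. On the lower side these were not all the members called in each line. NDUFC2, NDUFV2, UQCR10 and UQCRFS1 were called in each line with some overlap. NDUFA12, NDUFA2, NDUFAB1 and NDUFB2 had no overlap but were not called in each line. No line passed the threshold for 26 members. In the counts 1 member, SDHD, was called in opposite directions, in SNT-8 and SNK-10, and without any 1 of 5 libraries there was none. On FPKM with limma the 1 such member was NDUFB6, lower in SNT-8 and SNK-10 and higher in SNT-16. Over the 77 members with at least 10 CPM, log2 fold changes correlated with a Pearson r of 0.88 between SNT-8 and SNK-10, 0.88 between SNT-8 and SNT-16 and 0.86 between SNK-10 and SNT-16, with the same sign in 64, 62 and 63 genes. These r are across genes, which are not independent replicates, and over 9332 genes they were 0.82, 0.89 and 0.79.

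**Figure D1:**
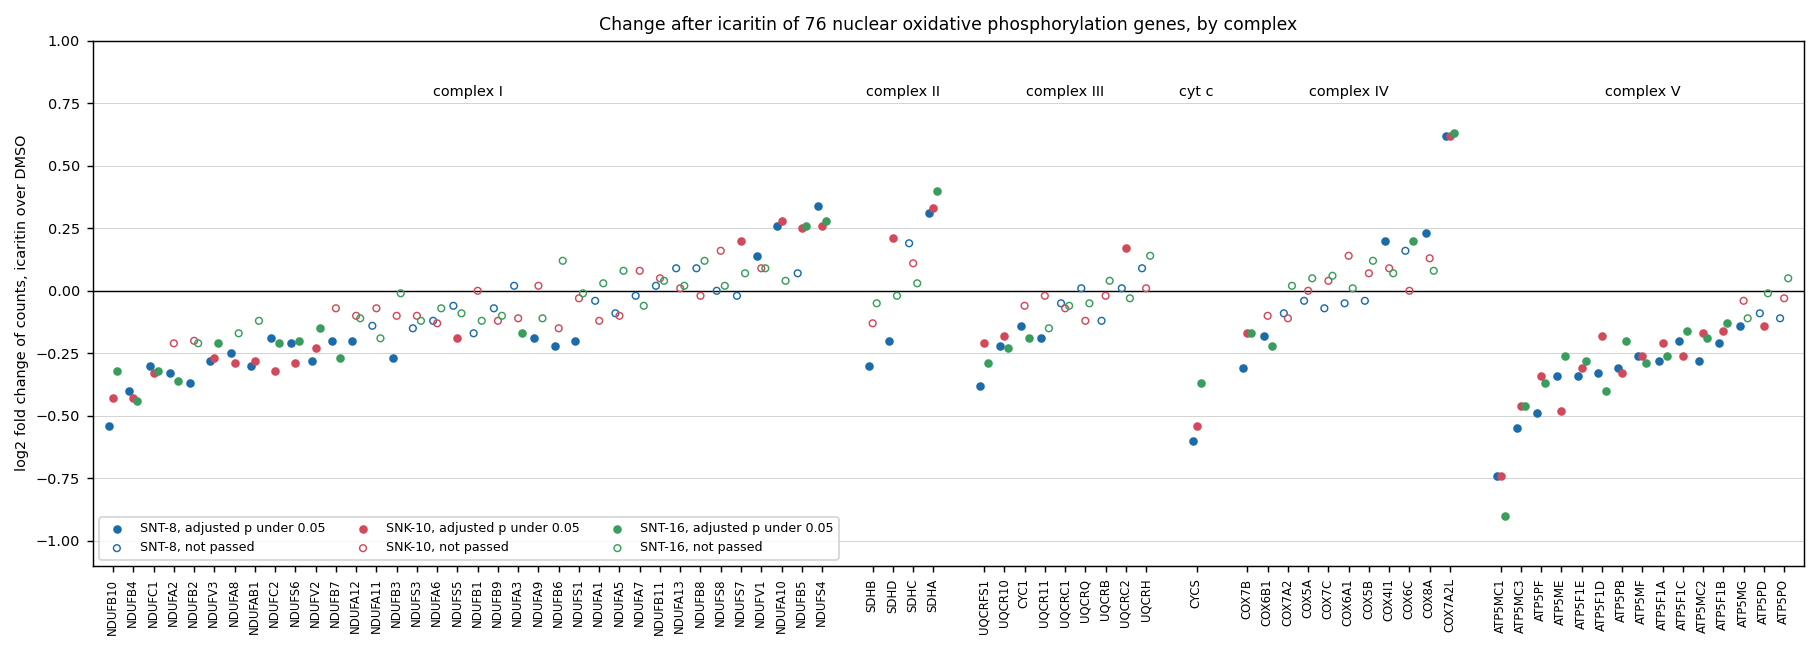
Log2 fold change of counts, icaritin over DMSO, of 76 of the 77 members with at least 10 CPM, grouped by complex and ordered within it by the average of the lines, with 1 point per line and filled points at an adjusted p under 0.05. Complex V lies almost wholly below 0, CYCS lies between -0.60 and -0.37, and COX7A2L stands highest at 0.62 to 0.63.

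Summed over a complex in FPKM, fragments scaled by transcript length and library size, the complexes differed in how far they moved. Complex V summed to 2285.5 ± 34.0 FPKM after icaritin and 2659.1 ± 30.8 FPKM under DMSO in SNT-8 (SD, n = 3 each), a ratio of 0.860. In SNK-10 its sums were 2066.8 ± 16.4 and 2486.4 ± 72.5 FPKM, a ratio of 0.831, and in SNT-16 2292.0 ± 72.5 and 2620.6 ± 6.83 FPKM, a ratio of 0.875. Complex I had ratios of icaritin to DMSO of 0.946 in SNT-8, 0.910 in SNK-10 and 0.950 in SNT-16. For complexes I and V the libraries of the 2 treatments did not overlap in any line. Complex III had ratios of 0.981, 0.949 and 0.971 in SNT-8, SNK-10 and SNT-16, and its libraries overlapped in SNT-8. Complex II had ratios of 0.997, 1.06 and 1.08 and complex IV of 1.03, 1.01 and 1.04 in the same order of lines; complex II overlapped in SNT-8, and complex IV in SNT-8 and SNK-10. FPKM is scaled to a library total in which mitochondrial rRNA took a larger share after icaritin: 2.26% to 2.97% against 1.28% to 1.43% of counts in SNT-8, 5.02% to 5.60% against 1.64% to 1.69% in SNK-10, and 1.78% to 1.90% against 0.900% to 0.963% in SNT-16. With the mitochondrial rRNA genes left out of the counts, the 112 fold changes of the members described gene by gene kept their direction and their side of the threshold. That fit was on the counts, and the FPKM sums were not recalculated without these genes. It therefore does not show how far the ratios above depend on the rRNA share.

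**Figure D2:**
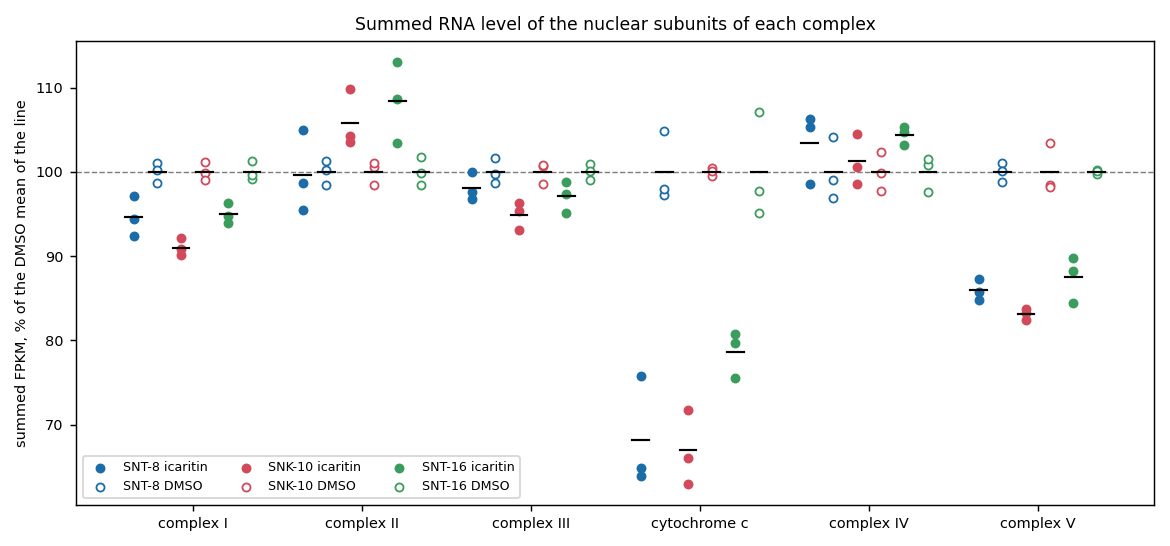
Summed FPKM of the members of each complex in each library, as a percentage of the mean of the DMSO libraries of its line, with filled points for icaritin, open points for DMSO and bars for group means; the axis does not start at 0. Cytochrome c and complexes I, III and V lie below 100% in every icaritin library, with cytochrome c and complex V lowest. For complex III in SNT-8 the highest icaritin library had 711.6 FPKM against a DMSO mean of 711.7 FPKM. Complexes II and IV lie near or above 100%.

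In complex V most genes fell together. ATP synthase has a catalytic head, F1, a membrane part with a rotating ring of c subunits, and a stalk that joins them. Of the 16 members of complex V, 13 were lower in SNT-8, 13 in SNK-10 and 12 in SNT-16, and none was higher in any line. Of all tested genes, 25.0%, 24.0% and 20.8% were lower and 24.0%, 24.4% and 21.2% higher in the same order. Across the alternative fits and left-out replicates, between 10 and 13 genes were lower in a line and none was higher. On the average 14 were lower and 1, ATP5MGL, was higher, where 30.0% of all genes were lower and 31.7% higher.

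The c ring is encoded by 3 genes, ATP5MC1, ATP5MC2 and ATP5MC3, whose mature proteins are identical and whose import sequences differ. All 3 were lower in each line, as were 14.3% of all tested genes. ATP5MC1 in SNT-8 stood at 42.4, 42.1 and 47.9 CPM after icaritin, against 75.6, 68.6 and 77.2 CPM under DMSO. ATP5MC1 in SNK-10 stood at 39.7, 39.6 and 34.9 CPM after icaritin, against 61.6, 68.6 and 61.0 CPM under DMSO. ATP5MC1 in SNT-16 stood at 38.9, 39.9 and 42.0 CPM after icaritin, against 71.4, 83.8 and 69.5 CPM under DMSO. ATP5MC1 was lower in every icaritin library than in any DMSO library of its line. By edgeR, ATP5MC1 had log2 fold changes of -0.74 (SE 0.073, adjusted p = 4.51e-11) in SNT-8, -0.74 (SE 0.0772, adjusted p = 1.67e-10) in SNK-10, and -0.90 (SE 0.0737, adjusted p = 5.59e-13) in SNT-16. ATP5MC3 in SNT-8 stood at 98.4, 100.5 and 96.0 CPM after icaritin, against 157, 134 and 143 CPM under DMSO. ATP5MC3 in SNK-10 stood at 73.4, 76.9 and 80.1 CPM after icaritin, against 109.9, 105 and 102 CPM under DMSO. ATP5MC3 in SNT-16 stood at 91.4, 88.5 and 94.7 CPM after icaritin, against 120.1, 139 and 120.0 CPM under DMSO. The 2 treatments again did not overlap in any line. For ATP5MC3 the log2 fold changes were -0.55 in SNT-8, -0.46 in SNK-10, and -0.46 in SNT-16, each called. ATP5MC2 in SNT-8 stood at 148, 153 and 155 CPM after icaritin, against 210.5, 183 and 159 CPM under DMSO. ATP5MC2 in SNK-10 stood at 167, 167 and 166 CPM after icaritin, against 184, 193 and 186 CPM under DMSO. ATP5MC2 in SNT-16 stood at 150.2, 163 and 154 CPM after icaritin, against 172, 189.7 and 173 CPM under DMSO. Here too the icaritin libraries lay below the DMSO libraries of the same line, with a narrow gap in SNT-8, where 1 DMSO library stood at 159 CPM. For ATP5MC2 the log2 fold changes were -0.28 in SNT-8, -0.17 in SNK-10, and -0.19 in SNT-16, each called. The call of ATP5MC2 was lost in SNK-10 when DMSO replicate 2 or any icaritin replicate was left out (adjusted p = 0.0595 to 0.0792), and in SNT-16 without DMSO replicate 2 or icaritin replicate 1 (adjusted p = 0.105 and 0.0748), all by edgeR. On FPKM with limma the SNT-16 call was lost in 3 settings (adjusted p = 0.0599 to 0.101). Without DMSO replicate 1 its log2 fold change in SNT-8 was -0.17.

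The 3 genes fell unequally, so that their shares shifted. ATP5MC1 made up 27.2% ± 1.26 of the summed c-ring FPKM after icaritin and 33.2% ± 3.12 under DMSO in SNT-8 (SD, n = 3 each). In SNK-10 its share was 23.6% ± 1.38 after icaritin and 30.8% ± 0.996 under DMSO, and in SNT-16 25.2% ± 0.817 and 34.6% ± 0.923. ATP5MC2 was the largest contributor, with 60.1%, 66.5% and 62.7% after icaritin against 53.1%, 58.5% and 53.1% under DMSO in SNT-8, SNK-10 and SNT-16. The sum over the c ring was 291.5 ± 11.5 FPKM after icaritin and 387.3 ± 31.6 FPKM under DMSO in SNT-8, 271.4 ± 10.5 and 355.8 ± 13.0 FPKM in SNK-10, and 290.9 ± 4.99 and 387.0 ± 29.7 FPKM in SNT-16.

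**Figure D3:**
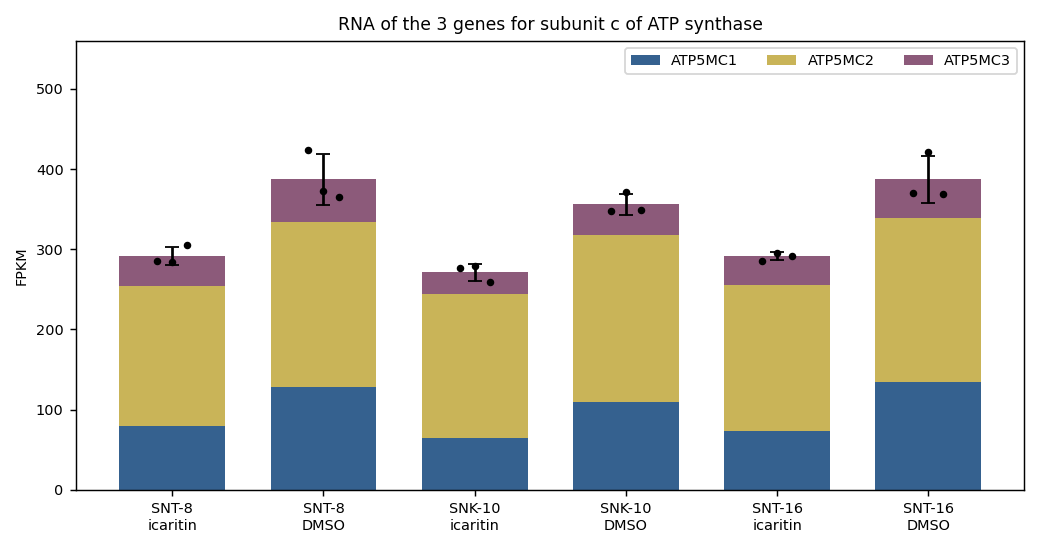
Mean FPKM of the 3 genes of the c subunit, stacked, in each group, with black points for the summed value of each library and error bars of 1 SD (n = 3). The summed level is lower after icaritin in each line, and the ATP5MC1 part takes 23.6% to 27.2% of it against 30.8% to 34.6% under DMSO.

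All 5 genes of the F1 head were lower in each line, against 14.3% of all tested genes. ATP5F1A and ATP5F1B encode the alpha and beta subunits, of which beta carries the catalytic sites, and ATP5F1B had the highest FPKM among complex V genes in each group. ATP5F1A averaged a log2 fold change of -0.25 (SE 0.0262), ATP5F1B -0.17, the central stalk gene ATP5F1C -0.21, ATP5F1D -0.30 and ATP5F1E -0.31. Of the other subunits, ATP5PF averaged -0.40, ATP5ME -0.36, ATP5PB, the b subunit of the outer stalk, -0.28 and ATP5MF -0.27, each lower in all 3 lines. ATP5MG was lower in SNT-8 at -0.14 and had -0.04 in SNK-10 and -0.11 in SNT-16 without passing the test. ATP5PD was lower in SNK-10 at -0.14 and had -0.09 and -0.01 in SNT-8 and SNT-16. ATP5PO, the oligomycin sensitivity subunit that ties F1 to the stalk, did not pass in any line, with -0.11, -0.03 and 0.05 in SNT-8, SNK-10 and SNT-16. ATP5MGL, a low-count gene close in sequence to ATP5MG with 137.1 expected counts over all libraries, averaged 0.66 (edgeR adjusted p = 0.0381). Leaving out 1 library at a time, this call was lost in 9 of 18 fits (edgeR adjusted p = 0.0544 to 0.0986), namely without SNT-8 DMSO replicate 1 or 3, SNT-8 icaritin replicate 1 or 2, SNK-10 DMSO replicate 1, SNK-10 icaritin replicate 1 or 2, SNT-16 DMSO replicate 2 or SNT-16 icaritin replicate 3. It was also lost by DESeq2 (adjusted p = 0.0932) and in edgeR with no filter on low counts (adjusted p = 0.0604). ATP5PF overlaps GABPA in the annotation and ATP5F1B overlaps BAZ2A; the reads of such pairs may have been split in error, so their values are uncertain.

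Cytochrome c, the small carrier between complexes III and IV that also activates caspases once released, had on average a larger fall than any other member outside complex V. CYCS in SNT-8 stood at 262, 311 and 255 CPM after icaritin, against 407, 408 and 437 CPM under DMSO. CYCS in SNK-10 stood at 274, 259.8 and 309 CPM after icaritin, against 409.8, 409.8 and 409 CPM under DMSO. CYCS in SNT-16 stood at 277, 287 and 269 CPM after icaritin, against 341, 351 and 384 CPM under DMSO. Every icaritin library lay below every DMSO library of its line. By edgeR, CYCS had log2 fold changes of -0.60 (SE 0.0642, adjusted p = 2.04e-08) in SNT-8, -0.54 (SE 0.0645, adjusted p = 1.10e-07) in SNK-10, and -0.37 (SE 0.0644, adjusted p = 3.68e-05) in SNT-16. In FPKM the ratios of icaritin to DMSO were 0.682, 0.670 and 0.786 in SNT-8, SNK-10 and SNT-16.

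**Figure D4:**
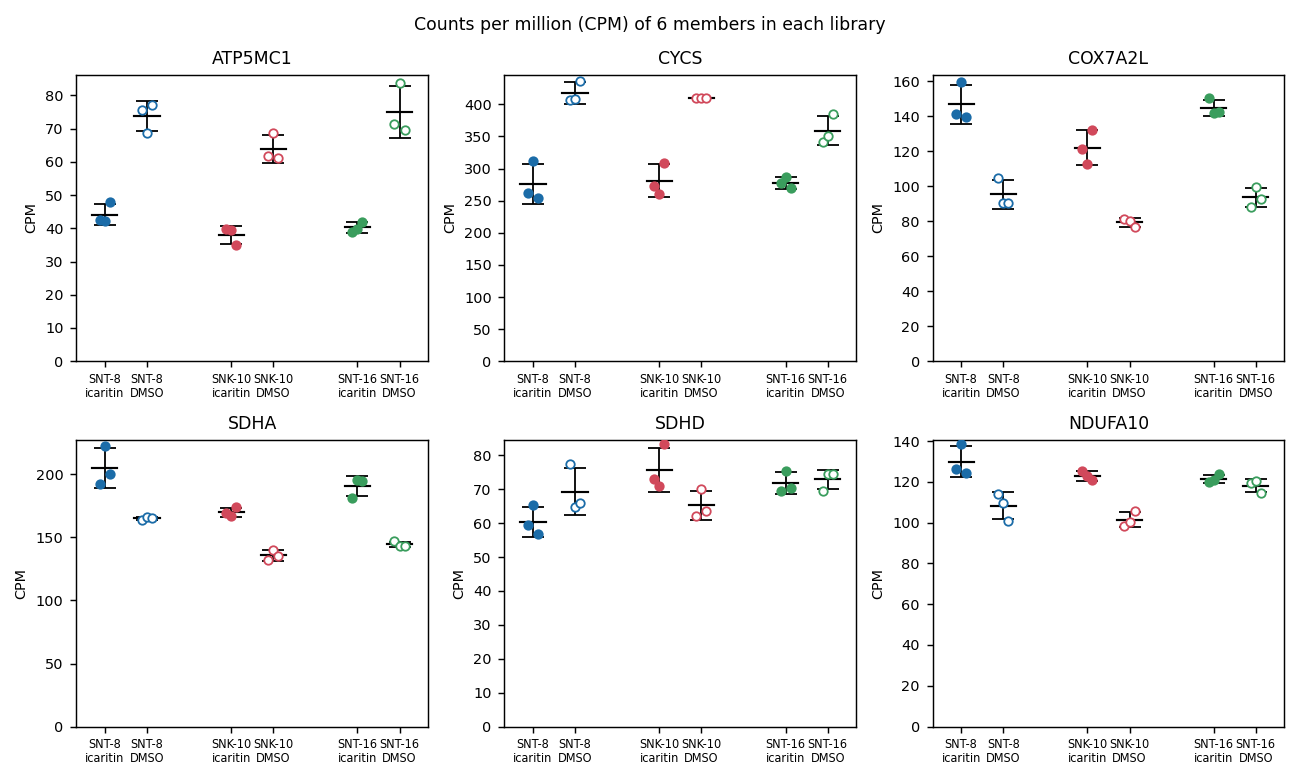
CPM of 6 members in each library, with icaritin filled and left of DMSO for each line, and bars for the mean and 1 SD (n = 3). ATP5MC1 and CYCS are lower and COX7A2L and SDHA higher in every icaritin library, while SDHD and NDUFA10 differ between lines.

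Complex IV, cytochrome c oxidase, did not move as a whole. Of its 12 tested genes, 3 were higher and 2 lower in SNT-8, 1 higher and 1 lower in SNK-10, and 2 higher and 2 lower in SNT-16. The higher genes were 25.0%, 8.33% and 16.7% in SNT-8, SNK-10 and SNT-16, against 24.0%, 24.4% and 21.2% of all genes. The lower genes were 16.7%, 8.33% and 16.7%, against 25.0%, 24.0% and 20.8% of all genes. COX7A2L, whose product is known for joining complexes III and IV into supercomplexes, had the largest rise of any member above 10 CPM. COX7A2L in SNT-8 stood at 141, 159.6 and 139.5 CPM after icaritin, against 105, 90.6 and 90.4 CPM under DMSO. COX7A2L in SNK-10 stood at 121, 113 and 132 CPM after icaritin, against 81.5, 80.3 and 76.6 CPM under DMSO. COX7A2L in SNT-16 stood at 150.2, 142 and 142 CPM after icaritin, against 88.3, 99.5 and 92.9 CPM under DMSO. All icaritin libraries were above the DMSO libraries of their line, and the size of the rise was nearly equal in the 3 lines. By edgeR, COX7A2L had log2 fold changes of 0.62 (SE 0.0626, adjusted p = 1.58e-10) in SNT-8, 0.62 (SE 0.0655, adjusted p = 5.45e-10) in SNK-10, and 0.63 (SE 0.0627, adjusted p = 1.78e-10) in SNT-16. COX8A had 70.5, 81.1 and 82.8 CPM after icaritin against 64.8, 70.8 and 64.3 CPM under DMSO in SNT-8, 84.3, 81.8 and 87.5 CPM after icaritin against 80.6, 74.2 and 76.5 CPM under DMSO in SNK-10, and 71.8, 84.7 and 82.7 CPM after icaritin against 75.6, 75.8 and 74.2 CPM under DMSO in SNT-16. COX8A, a small membrane subunit, was higher in SNT-8 and not called in the other lines. For COX8A the log2 fold changes were 0.23 in SNT-8, 0.13 in SNK-10, and 0.08 in SNT-16, with no call in SNK-10 or SNT-16. COX7B had 74.8, 82.7 and 73.0 CPM after icaritin against 108, 90.4 and 87.9 CPM under DMSO in SNT-8, 58.2, 66.5 and 67.7 CPM after icaritin against 73.5, 73.6 and 69.7 CPM under DMSO in SNK-10, and 79.6, 78.9 and 83.2 CPM after icaritin against 93.2, 91.2 and 87.8 CPM under DMSO in SNT-16. COX7B, another small subunit, was lower in each line, and its icaritin and DMSO libraries did not overlap. For COX7B the log2 fold changes were -0.31 in SNT-8, -0.17 in SNK-10, and -0.17 in SNT-16, each called. The SNK-10 call of COX7B was lost without DMSO replicate 1 or 2 or icaritin replicate 1, where its log2 fold change was between -0.16 and -0.10, and the SNT-16 call without replicate 1 or 2 of either treatment, at -0.15 to -0.17. DESeq2 lost both calls (adjusted p = 0.0830 and 0.0572), RLE factors that in SNK-10 (edgeR adjusted p = 0.0527), and limma on FPKM that in SNT-16 in 3 settings (adjusted p = 0.0803 to 0.129). COX6B1 had 103, 105 and 119 CPM after icaritin against 123, 123 and 127 CPM under DMSO in SNT-8, 102, 112 and 113 CPM after icaritin against 120.3, 112 and 116 CPM under DMSO in SNK-10, and 99.9, 109 and 109 CPM after icaritin against 121, 125 and 125 CPM under DMSO in SNT-16. COX6B1, a subunit on the intermembrane space side, was lower in SNT-8 and SNT-16. For COX6B1 the log2 fold changes were -0.18 in SNT-8, -0.10 in SNK-10, and -0.22 in SNT-16, with no call in SNK-10. The SNT-8 call of COX6B1 was lost on FPKM with limma and no filter (adjusted p = 0.0578).

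Several complex IV subunits have forms made in different tissues. COX4I1 had 198, 214 and 193 CPM after icaritin against 191, 167 and 170.2 CPM under DMSO in SNT-8, 157, 153 and 173 CPM after icaritin against 157, 153 and 143 CPM under DMSO in SNK-10, and 173, 178 and 183 CPM after icaritin against 158, 172 and 178 CPM under DMSO in SNT-16. COX4I1, the broadly made form of subunit 4, was higher in SNT-8 only, and the difference from the other lines did not pass its own test (edgeR adjusted p = 0.468 for the 3 lines). For COX4I1 the log2 fold changes were 0.20 in SNT-8, 0.09 in SNK-10, and 0.07 in SNT-16, with no call in SNK-10 or SNT-16. COX6A1 had 119.9, 133 and 144 CPM after icaritin against 139, 148 and 122 CPM under DMSO in SNT-8, 125, 132 and 127 CPM after icaritin against 122, 111 and 116 CPM under DMSO in SNK-10, and 146, 149 and 145 CPM after icaritin against 142, 145 and 149.6 CPM under DMSO in SNT-16. COX6A1, the liver form, did not overlap in SNK-10, where its icaritin libraries were the higher. For COX6A1 the log2 fold changes were -0.05 in SNT-8, 0.14 in SNK-10, and 0.01 in SNT-16, with no call in SNT-8 or SNK-10 or SNT-16. Its SNK-10 value was called with RLE factors, with no filter, in the fit of that line alone and in 6 of the fits that left out 1 library (edgeR adjusted p = 0.0312 to 0.0442, log2 fold change 0.13 to 0.18). COX7A2, the liver form of subunit 7A, did not pass in any line in the counts. COX7A2 had 58.4, 58.0 and 60.5 CPM after icaritin against 60.5, 66.2 and 61.0 CPM under DMSO in SNT-8, 64.1, 55.6 and 65.0 CPM after icaritin against 69.1, 67.7 and 62.8 CPM under DMSO in SNK-10, and 61.6, 67.4 and 63.0 CPM after icaritin against 58.9, 64.4 and 65.4 CPM under DMSO in SNT-16. On FPKM with limma and a filter COX7A2 was called lower in SNK-10 at -0.14 or -0.15 (adjusted p = 0.0457 and 0.0466). The heart and muscle form COX7A1 was listed in only some libraries, with 9.0 expected counts over all 18. COX6B2, known from testis, was also low. COX6B2 had 3.49, 2.41 and 3.54 CPM after icaritin against 3.24, 3.75 and 3.6 CPM under DMSO in SNT-8, 3.79, 4.62 and 2.3 CPM after icaritin against 3.05, 3.04 and 2.33 CPM under DMSO in SNK-10, and 5.46, 3.55 and 2.67 CPM after icaritin against 3.98, 2.48 and 2.87 CPM under DMSO in SNT-16. Its values overlapped in each line and did not pass the test. Of the others, COX6C was higher in SNT-16 at 0.20, and COX5A, COX5B and COX7C did not pass in any line. The symbols COX4I2, COX6A2 and COX8C fall under the rule, and no member with any of them was found in the deposited tables. COXFA4, listed in older nomenclature as NDUFA4 and outside the rule, averaged -0.00 (edgeR adjusted p = 0.985), with 76.8 to 101.9 CPM over all libraries. COXFA4L2, the other gene of this pair and also outside the rule, was low. In SNK-10 it had 2.92, 2.80 and 3.07 CPM after icaritin against 1.05, 0.630 and 1.48 CPM under DMSO. In SNT-8 and SNT-16 no library exceeded 0.102 CPM. The rise of COXFA4L2 in SNK-10 rests on few counts.

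Complex II, succinate dehydrogenase, which also works in the citric acid cycle and has no subunit from mitochondrial DNA, did not move as a whole: SDHA was higher in every line, SDHB was lower in SNT-8, and in the counts SDHC passed in no single line and SDHD in opposite directions in SNT-8 and SNK-10. SDHA carries the flavin and the succinate site. SDHA in SNT-8 stood at 193, 223 and 200.4 CPM after icaritin, against 164, 166 and 165 CPM under DMSO. SDHA in SNK-10 stood at 169.6, 167 and 174 CPM after icaritin, against 132, 140.0 and 135 CPM under DMSO. SDHA in SNT-16 stood at 182, 196 and 195 CPM after icaritin, against 147, 143 and 143 CPM under DMSO. SDHA was higher in every icaritin library than in the DMSO libraries of its line. By edgeR, SDHA had log2 fold changes of 0.31 (SE 0.049, adjusted p = 9.88e-07) in SNT-8, 0.33 (SE 0.0508, adjusted p = 1.08e-06) in SNK-10, and 0.40 (SE 0.0496, adjusted p = 1.31e-08) in SNT-16. SDHA has near-identical copies elsewhere in the genome, so its counts are uncertain where reads could be shared. SDHB had 77.7, 87.0 and 81.7 CPM after icaritin against 95.3, 101 and 107 CPM under DMSO in SNT-8, 70.2, 73.1 and 78.9 CPM after icaritin against 83.2, 76.7 and 83.6 CPM under DMSO in SNK-10, and 79.5, 95.2 and 88.4 CPM after icaritin against 89.5, 93.3 and 89.9 CPM under DMSO in SNT-16. SDHB, with the iron-sulfur clusters, was lower in SNT-8, and its libraries overlapped in SNK-10 and SNT-16. For SDHB the log2 fold changes were -0.30 in SNT-8, -0.13 in SNK-10, and -0.05 in SNT-16, with no call in SNK-10 or SNT-16. In SNK-10 SDHB was called lower in the fit of that line alone (edgeR adjusted p = 0.0383), on FPKM with limma in 3 settings (adjusted p = 0.0255 to 0.0430), and in edgeR without DMSO replicate 2 or icaritin replicate 3 (adjusted p = 0.0493 and 0.0344). SDHC had 31.8, 30.1 and 31.8 CPM after icaritin against 28.5, 26.9 and 26.9 CPM under DMSO in SNT-8, 57.5, 57.7 and 68.4 CPM after icaritin against 56.4, 54.4 and 58.9 CPM under DMSO in SNK-10, and 34.7, 36.8 and 41.3 CPM after icaritin against 35.5, 37.4 and 37.1 CPM under DMSO in SNT-16. SDHC, a membrane anchor, did not pass in any single line in the counts. For SDHC the log2 fold changes were 0.19 in SNT-8, 0.11 in SNK-10, and 0.03 in SNT-16, with no call in SNT-8 or SNK-10 or SNT-16. It was called higher in SNT-8 in all 3 limma fits on FPKM (0.21 to 0.23, adjusted p = 0.00680 to 0.0106), and in edgeR without SNT-8 icaritin replicate 2 or SNK-10 icaritin replicate 3 (adjusted p = 0.0494 and 0.0395). On the average it was 0.11 (edgeR adjusted p = 0.0268), a call lost without any of 4 libraries, SNK-10 DMSO replicate 2, SNK-10 icaritin replicate 3, SNT-16 DMSO replicate 1 and SNT-16 icaritin replicate 3, and also by DESeq2 and with no filter (adjusted p = 0.0558 and 0.0550).

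SDHD, the other membrane anchor, was called lower in SNT-8 and higher in SNK-10 in the counts. SDHD in SNT-8 stood at 59.3, 65.3 and 56.7 CPM after icaritin, against 77.3, 64.7 and 65.8 CPM under DMSO. SDHD in SNK-10 stood at 73.1, 70.9 and 83.2 CPM after icaritin, against 62.1, 70.0 and 63.6 CPM under DMSO. SDHD in SNT-16 stood at 69.4, 75.5 and 70.5 CPM after icaritin, against 69.6, 74.5 and 74.6 CPM under DMSO. In SNT-8, 1 icaritin library stood above the lowest DMSO library; icaritin libraries lay above all DMSO libraries in SNK-10 and overlapped them in SNT-16. By edgeR, SDHD had log2 fold changes of -0.20 (SE 0.0709, adjusted p = 0.0201) in SNT-8, 0.21 (SE 0.0707, adjusted p = 0.011) in SNK-10, and -0.02 (SE 0.069, adjusted p = 0.831) in SNT-16. The response differed between the lines (edgeR interaction, 2 degrees of freedom, adjusted p = 0.0113, against 14.3% of all genes called). The SNT-8 call was lost without DMSO replicate 1 (log2 fold change -0.11) and without icaritin replicate 1 or 3, and the SNK-10 call without DMSO replicate 1 or icaritin replicate 3. On FPKM with limma the SNT-8 call was also lost (adjusted p = 0.0861 to 0.135 over 3 settings), and so was the SNK-10 call with no filter (adjusted p = 0.0688). On FPKM with limma the interaction had an adjusted p of 0.078.

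Complex I, the NADH dehydrogenase, had 37 tested members, of which 17 were lower and 3 higher in SNT-8, 10 lower and 4 higher in SNK-10, and 10 lower and 2 higher in SNT-16. The lower genes were 45.9% of the complex in SNT-8, against 25.0% of all tested genes, and 27.0% in both SNK-10 and SNT-16, near the 24.0% and 20.8% of all genes. The higher genes were 8.11%, 10.8% and 5.41% in SNT-8, SNK-10 and SNT-16, against 24.0%, 24.4% and 21.2% of all genes. Its core subunits carry the flavin and iron-sulfur clusters, while accessory subunits surround them. On the average of the lines, 3 of 7 core genes were lower and 1 higher, and 17 of 30 accessory genes were lower and 3 higher, where 30.0% of all genes were lower and 31.7% higher. NDUFB10 and NDUFB4, accessory subunits of the membrane arm, fell most. NDUFB10 in SNT-8 stood at 44.1, 40.4 and 43.2 CPM after icaritin, against 70.3, 57.7 and 57.8 CPM under DMSO. NDUFB10 in SNK-10 stood at 35.9, 39.7 and 40.7 CPM after icaritin, against 57.7, 50.6 and 48.4 CPM under DMSO. NDUFB10 in SNT-16 stood at 39.3, 42.0 and 46.0 CPM after icaritin, against 52.1, 55.7 and 50.8 CPM under DMSO. No icaritin library reached the level of any DMSO library of its line. By edgeR, NDUFB10 had log2 fold changes of -0.54 (SE 0.0774, adjusted p = 2.25e-07) in SNT-8, -0.43 (SE 0.0815, adjusted p = 2.81e-05) in SNK-10, and -0.32 (SE 0.0787, adjusted p = 0.00104) in SNT-16. NDUFB4 in SNT-8 stood at 58.5, 65.3 and 58.1 CPM after icaritin, against 82.0, 81.2 and 77.4 CPM under DMSO. NDUFB4 in SNK-10 stood at 60.8, 68.7 and 66.7 CPM after icaritin, against 92.9, 89.8 and 81.7 CPM under DMSO. NDUFB4 in SNT-16 stood at 57.4, 59.7 and 53.9 CPM after icaritin, against 72.0, 75.2 and 84.1 CPM under DMSO. NDUFB4 showed the same separation in each line. For NDUFB4 the log2 fold changes were -0.40 in SNT-8, -0.43 in SNK-10, and -0.44 in SNT-16, each called. NDUFC1, NDUFC2, NDUFS6 and NDUFV3, all accessory, and NDUFV2, a core subunit, were also lower in each line, with averages of -0.32, -0.24, -0.24, -0.26 and -0.22. NDUFC1 overlaps NAA15 in the annotation, which had more counts, so its value is uncertain. NDUFV3 averaged -0.16 on the log2(FPKM + 0.1) scale.

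On the higher side stood NDUFS4, an accessory subunit of the matrix arm whose loss is known to cause Leigh syndrome. NDUFS4 in SNT-8 stood at 23.9, 29.6 and 26.2 CPM after icaritin, against 22.7, 19.7 and 20.6 CPM under DMSO. NDUFS4 in SNK-10 stood at 27.1, 24.2 and 29.2 CPM after icaritin, against 22.1, 21.3 and 23.8 CPM under DMSO. NDUFS4 in SNT-16 stood at 21.4, 23.6 and 20.6 CPM after icaritin, against 19.8, 15.8 and 18.5 CPM under DMSO. The icaritin libraries were above the DMSO libraries in each line, by small gaps. By edgeR, NDUFS4 had log2 fold changes of 0.34 (SE 0.0964, adjusted p = 0.00326) in SNT-8, 0.26 (SE 0.0972, adjusted p = 0.0255) in SNK-10, and 0.28 (SE 0.101, adjusted p = 0.0229) in SNT-16. Its SNK-10 call was lost when DMSO replicate 1 or 2 or icaritin replicate 1 or 3 was left out, and its SNT-16 call without DMSO or icaritin replicate 2, with log2 fold changes of 0.19 to 0.25. Both were lost by DESeq2 (adjusted p = 0.0503 and 0.0537), and the SNK-10 call on FPKM with limma and no filter (adjusted p = 0.0841). NDUFB5 had 62.2, 63.2 and 56.6 CPM after icaritin against 60.6, 55.2 and 57.1 CPM under DMSO in SNT-8, 55.5, 54.1 and 61.9 CPM after icaritin against 48.5, 46.8 and 48.5 CPM under DMSO in SNK-10, and 59.4, 60.0 and 67.0 CPM after icaritin against 53.9, 52.8 and 48.6 CPM under DMSO in SNT-16. NDUFB5, of the membrane arm, was higher in SNK-10 and SNT-16. For NDUFB5 the log2 fold changes were 0.07 in SNT-8, 0.25 in SNK-10, and 0.26 in SNT-16, with no call in SNT-8. NDUFA10 in SNT-8 stood at 126, 139 and 124 CPM after icaritin, against 114, 109.6 and 101 CPM under DMSO. NDUFA10 in SNK-10 stood at 125, 123 and 121 CPM after icaritin, against 98.6, 100.4 and 106 CPM under DMSO. NDUFA10 in SNT-16 stood at 119.8, 121 and 124 CPM after icaritin, against 119, 120.5 and 115 CPM under DMSO. NDUFA10, an accessory subunit of the membrane arm, was higher without overlap in SNT-8 and SNK-10 and overlapped in SNT-16. By edgeR, NDUFA10 had log2 fold changes of 0.26 (SE 0.0524, adjusted p = 5.81e-05) in SNT-8, 0.28 (SE 0.0536, adjusted p = 4.05e-05) in SNK-10, and 0.04 (SE 0.0522, adjusted p = 0.581) in SNT-16. The response differed between the lines (edgeR interaction adjusted p = 0.034). On the log2(FPKM + 0.1) scale its change was 0.11 in SNT-8 and 0.12 in SNK-10 and neither passed the limma test, and the interaction had an adjusted p of 0.351. In the counts the interaction was lost without any 1 of 9 libraries (edgeR adjusted p = 0.0511 to 0.0983), which were SNT-8 DMSO replicate 3, SNK-10 DMSO replicates 1 and 2, SNK-10 icaritin replicate 1, SNT-16 DMSO replicates 1 and 2 and the 3 SNT-16 icaritin replicates. With replicate number as a block it had an adjusted p of 0.059.

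The largest core subunit, NDUFS1, takes electrons towards the iron-sulfur chain. NDUFS1 had 88.9, 96.1 and 88.9 CPM after icaritin against 104, 102 and 109 CPM under DMSO in SNT-8, 92.6, 93.3 and 97.3 CPM after icaritin against 98.6, 99.9 and 91.4 CPM under DMSO in SNK-10, and 90.1, 87.2 and 90.6 CPM after icaritin against 90.7, 91.6 and 87.2 CPM under DMSO in SNT-16. It was lower in SNT-8, with values in the other lines that overlapped. For NDUFS1 the log2 fold changes were -0.20 in SNT-8, -0.03 in SNK-10, and -0.01 in SNT-16, with no call in SNK-10 or SNT-16. NDUFB6 had 24.7, 25.0 and 23.4 CPM after icaritin against 27.0, 28.8 and 29.1 CPM under DMSO in SNT-8, 15.7, 16.5 and 18.1 CPM after icaritin against 17.6, 18.5 and 19.6 CPM under DMSO in SNK-10, and 28.6, 27.4 and 28.5 CPM after icaritin against 26.7, 25.2 and 25.7 CPM under DMSO in SNT-16. NDUFB6 was lower in SNT-8, a call lost when DMSO replicate 2 or 3 or icaritin replicate 3 was left out and by DESeq2. For NDUFB6 the log2 fold changes were -0.22 in SNT-8, -0.15 in SNK-10, and 0.12 in SNT-16, with no call in SNK-10 or SNT-16. On log2(FPKM + 0.1) with limma, NDUFB6 was called lower in SNK-10 at -0.18 (adjusted p = 0.00822) and higher in SNT-16 at 0.15 (adjusted p = 0.0301), and both calls were also made in the other 2 limma fits. NDUFV1, which binds NADH, averaged 0.11 and was higher in SNT-8 at 0.14. NDUFS7 was higher in SNK-10 at 0.20, and NDUFS3 and NDUFS8 did not pass in any line. NDUFAB1, an acyl carrier protein that also serves mitochondrial fatty acid synthesis, was lower in SNT-8 at -0.30 and in SNK-10 at -0.28, with -0.12 in SNT-16.

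In complex III, which passes electrons from ubiquinol to cytochrome c, 4, 2 and 3 of 9 tested genes were lower in SNT-8, SNK-10 and SNT-16, and 1 was higher, in SNK-10. The lower genes were 44.4%, 22.2% and 33.3% of those tested, against 25.0%, 24.0% and 20.8% of all genes. The higher genes were 0%, 11.1% and 0%, against 24.0%, 24.4% and 21.2% of all genes. UQCRFS1, the Rieske iron-sulfur protein, had the largest fall. UQCRFS1 in SNT-8 stood at 79.6, 80.8 and 79.2 CPM after icaritin, against 113, 101 and 97.4 CPM under DMSO. UQCRFS1 in SNK-10 stood at 78.5, 70.5 and 91.2 CPM after icaritin, against 92.8, 95.4 and 89.6 CPM under DMSO. UQCRFS1 in SNT-16 stood at 85.8, 93.6 and 92.3 CPM after icaritin, against 113, 108 and 110.3 CPM under DMSO. The treatments were apart in SNT-8 and SNT-16 and overlapped in SNK-10. For UQCRFS1 the log2 fold changes were -0.38 in SNT-8, -0.21 in SNK-10, and -0.29 in SNT-16, each called. Without SNK-10 icaritin replicate 2 the value in that line was -0.12 and did not pass (edgeR adjusted p = 0.138). UQCR10 had 33.9, 31.4 and 33.4 CPM after icaritin against 37.9, 39.2 and 37.8 CPM under DMSO in SNT-8, 40.8, 40.1 and 46.8 CPM after icaritin against 51.6, 47.7 and 45.5 CPM under DMSO in SNK-10, and 37.4, 39.1 and 41.1 CPM after icaritin against 45.3, 46.8 and 45.7 CPM under DMSO in SNT-16. UQCR10, a small subunit, was lower in each line and overlapped in SNK-10. For UQCR10 the log2 fold changes were -0.22 in SNT-8, -0.18 in SNK-10, and -0.23 in SNT-16, each called. That SNK-10 call was lost without DMSO replicate 1 or icaritin replicate 1 or 2, with replicate number as a block (edgeR adjusted p = 0.0520), with no filter (edgeR adjusted p = 0.0638) and by DESeq2 (adjusted p = 0.0936); the SNT-8 call was lost without icaritin replicate 2 (edgeR adjusted p = 0.0520).

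CYC1 had 149, 146 and 160.4 CPM after icaritin against 167, 169.7 and 164 CPM under DMSO in SNT-8, 166, 165 and 171 CPM after icaritin against 169.9, 171 and 184 CPM under DMSO in SNK-10, and 135, 142 and 149.9 CPM after icaritin against 162, 159 and 166 CPM under DMSO in SNT-16. CYC1, the cytochrome that hands electrons to cytochrome c, was lower in SNT-8 and SNT-16. For CYC1 the log2 fold changes were -0.14 in SNT-8, -0.06 in SNK-10, and -0.19 in SNT-16, with no call in SNK-10. Its SNT-8 call was lost without DMSO replicate 2 or icaritin replicate 1 or 2 (edgeR adjusted p = 0.0577 to 0.0692), and on FPKM with limma in 3 settings (-0.10 to -0.09, adjusted p = 0.0944 to 0.132). UQCRC2 had 182, 209 and 203 CPM after icaritin against 206, 199 and 186 CPM under DMSO in SNT-8, 189.5, 202 and 215 CPM after icaritin against 179.6, 184 and 175 CPM under DMSO in SNK-10, and 197, 197 and 208 CPM after icaritin against 209, 201 and 205 CPM under DMSO in SNT-16. UQCRC2, a core protein of the matrix side, was higher in SNK-10, a call lost without icaritin replicate 3 (edgeR adjusted p = 0.0541). For UQCRC2 the log2 fold changes were 0.01 in SNT-8, 0.17 in SNK-10, and -0.03 in SNT-16, with no call in SNT-8 or SNT-16. UQCRH had 117, 125 and 101 CPM after icaritin against 109, 103 and 109.5 CPM under DMSO in SNT-8, 83.1, 76.1 and 79.3 CPM after icaritin against 83.2, 78.2 and 76.0 CPM under DMSO in SNK-10, and 104, 108 and 109.7 CPM after icaritin against 91.6, 104 and 96.4 CPM under DMSO in SNT-16. UQCRH, the hinge protein, overlapped in all lines and did not pass in the counts of all 18 libraries. For UQCRH the log2 fold changes were 0.09 in SNT-8, 0.01 in SNK-10, and 0.14 in SNT-16, with no call in SNT-8 or SNK-10 or SNT-16. It was called higher in SNT-16 in the fit of that line alone (edgeR adjusted p = 0.0116), on FPKM with limma and a filter (adjusted p = 0.0346 and 0.0348) and in 3 fits that left out 1 library (edgeR adjusted p = 0.0285 to 0.0330). In SNT-8 it was called higher without icaritin replicate 3 (0.17, edgeR adjusted p = 0.0138). The average was called higher by limma with a filter (adjusted p = 0.0318 and 0.0320). Some edgeR fits without 1 library also called the average higher (adjusted p = 0.00449 to 0.0479). UQCRHL, a near copy of UQCRH, held 13.3 expected counts over all libraries.

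Between lines, the response of 2 of 79 members, SDHD and NDUFA10, differed, which is 2.53% against 14.3% of all tested genes. Without SNT-8 icaritin replicate 2, the library that stood farthest from its replicates, 6 members passed this test: CYCS, NDUFA10, NDUFS1, SDHB, SDHD and UQCRC2. Other replicates left out gave 1 to 3 members.

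Under DMSO the lines themselves differed in the level of the members. In SNK-10, compared with the mean of the SNT-8 and SNT-16 lines, 11 members were higher and 33 lower, while 31.8% of all genes were higher and 29.6% lower. The median log2 difference over the members was -0.12, against 0.00 over all genes. SDHC was higher in SNK-10 by 0.83 (SE 0.0633), with 56.4, 54.4 and 58.9 CPM against 26.9 to 28.5 CPM in SNT-8 and 35.5 to 37.4 CPM in SNT-16. ATP5F1E, the epsilon subunit of F1, was higher by 0.80, NDUFS5 by 0.62, NDUFC2 by 0.51 and NDUFB1 by 0.42. ATP5F1E and NDUFC2 share sequence with read-through transcripts, so their values are uncertain. On the lower side in SNK-10 were NDUFS6 at -0.58 and NDUFB6 at -0.55; NDUFS6 overlaps MRPL36. At least a 1.5-fold difference was met by 3 members, SDHC, ATP5F1E and NDUFS5, all higher in SNK-10, against 28.2% of all genes. In complex IV, 6 of 12 genes were lower in SNK-10 and none was higher, with COX7B at -0.37 and COX5B at -0.34. With 1 SNK line, this is a difference between 3 lines and not between kinds of cell.

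**Figure D5:**
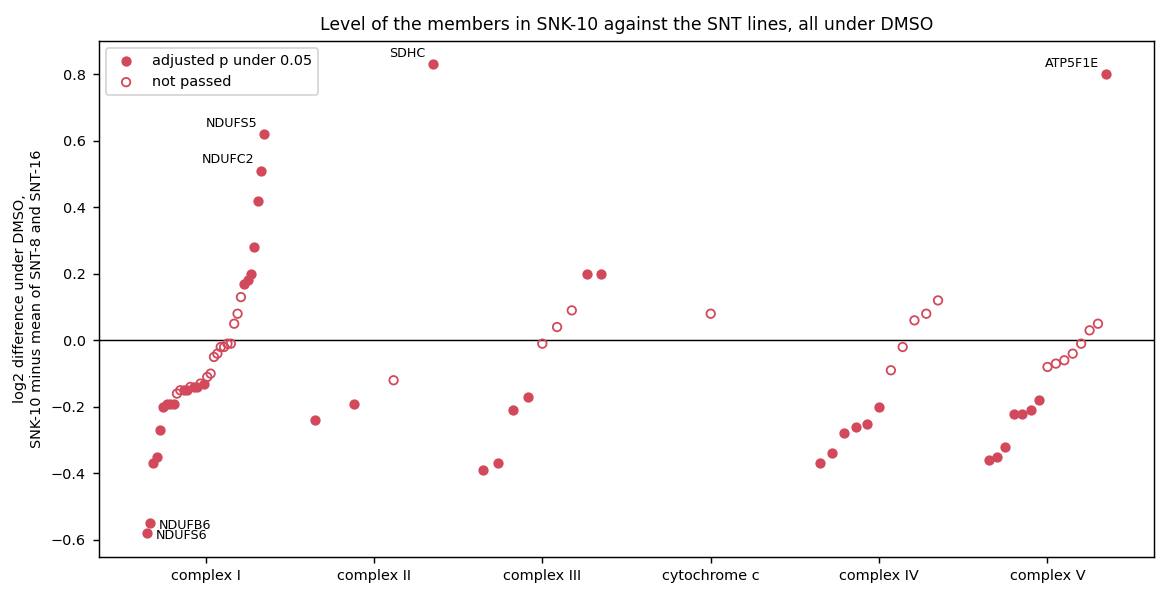
Log2 difference of counts under DMSO, SNK-10 minus the mean of SNT-8 and SNT-16, for 76 of the 77 members with at least 10 CPM, by complex, with filled points at an adjusted p under 0.05 and names at 0.5 or more in size. SDHC and ATP5F1E stand apart at 0.83 and 0.80, and NDUFS6 and NDUFB6 are lowest.

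Genes that work with the subunits were also followed by list. Of 57 assembly factors, which insert cofactors and join subunits without remaining in the complex, 23 were lower and 10 higher on the average of the lines, with a median of -0.08, where 30.0% and 31.7% of all genes were called. COA4, an assembly factor of complex IV, averaged -1.05 and NDUFAF4, of complex I, -1.07. COA7, of complex IV, averaged -0.70 and TTC19, of complex III, 0.51. Of 13 tested regulators of these genes, 10 were lower and 2 higher. PPRC1, a coactivator related to PGC-1, averaged -0.91, GABPA, the DNA-binding subunit of the GABP factor, -0.67, MYC -1.25 and ESRRA, an orphan nuclear receptor, -0.52.

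Of 19 enzymes of the citric acid cycle and pyruvate dehydrogenase, 9 (47.4%) were lower and 5 (26.3%) higher, where 30.0% of all genes were lower and 31.7% higher. IDH3A, the catalytic subunit of the NAD-dependent isocitrate dehydrogenase, averaged -0.50, IDH2, the NADP-dependent enzyme, 0.40, DLST 0.29 and DLAT -0.26. Of 25 other partners, 11 were lower and 5 higher, against the same background. SLC25A6, an ADP/ATP carrier, averaged 0.36, COQ8A, a kinase-like protein of ubiquinone synthesis, 0.96, PDSS1, which makes the ubiquinone side chain, -0.60 and VDAC3, an outer membrane channel, -0.26. The medians were -0.31 over the regulators, -0.07 over the cycle enzymes and -0.07 over the other partners, against 0.03 over all genes.

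Markers of other cell types moved with the treatment in part. Of 8 fibroblast and epithelial markers in the tables, 6 reached 1 CPM in a DMSO library, with DCN and KRT19 below it, and their summed level was 18 to 20.7 CPM after icaritin against 7.18 to 10.3 CPM under DMSO in SNT-8. It was 16.2 to 18.4 against 12.2 to 15.0 CPM in SNK-10 and 13.1 to 15.4 against 6.04 to 8.02 CPM in SNT-16. Of 8 myeloid markers, 4 reached 1 CPM, with CD14, S100A8, S100A9 and MPO below it, and their sums were 45.3 to 56.0 against 47.8 to 49.8 CPM in SNT-8, 51.8 to 62.3 against 45.3 to 53.4 CPM in SNK-10 and 44.2 to 47.4 against 41.7 to 43.0 CPM in SNT-16, icaritin against DMSO. Of 7 B cell markers, PAX5 and EBF1 reached 1 CPM, and the sums were 10.7 to 13.1 against 15.4 to 19.0 CPM, 5.81 to 6.77 against 4.51 to 5.92 CPM and 15.5 to 15.9 against 16.7 to 18.6 CPM in the same order. The summed NK and T cell markers were 5048.3 to 5424.8 CPM after icaritin against 5746.0 to 6067.9 CPM under DMSO in SNT-8, 4272.3 to 4455.0 against 4604.8 to 4739.3 CPM in SNK-10, and 5511.3 to 5757.6 against 6384.5 to 6495.5 CPM in SNT-16. Their part in the changes of the members was not tested.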

How the data were processed

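RNA-seq values of 18 libraries, with line and treatment read from the labels, were analysed as deposited. Total RNA was extracted with Trizol and libraries were made with an MGIEasy kit, per the labels' protocols. Bowtie2 and HISAT are named in the submitters' processing notes, without versions. Neither the quantification tool nor the strand setting or genome build is stated in the labels or file headers. The authors estimated and deposited an expected count of fragments for each gene, per the file headers. They also gave FPKM, scaled by transcript length and library size, per the file headers. The expected counts summed to 9526431 to 10100453 per library, which sets the precision for weakly expressed genes. A gene not listed in a library was taken as 0. Genes were named by Gene ID from RefSeq on GRCh38.p14: 21559 of 21662 IDs matched and 103 did not.

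Expected counts were rounded and fitted with edgeR 4.0.16 (R 4.3.3; filterByExpr with a minimum count of 10 and a total of 15; TMM; robust quasi-likelihood; 6 group means; 12 residual degrees of freedom). This left 14396 genes. Tested were icaritin against DMSO by line and on average, the interaction of line and treatment, and SNK-10 minus the SNT lines under DMSO. Tests were two-sided, with Benjamini-Hochberg adjustment over all genes and a threshold of 0.05. The standard error (SE) is the absolute log2 fold change over the square root of F. CPM are counts scaled by library size and TMM. Alternatives were RLE factors, DESeq2 1.42.0, no filter, single-line fits, a replicate block, limma 3.58.1 on log2(FPKM + 0.1) and log2(FPKM + 1), mitochondrial rRNA left out, a 1.5-fold threshold and each replicate left out. The edgeR code was tested on simulated data.

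The members and gene lists were chosen with earlier results of these data known. Values of every library are given for the members with the largest average rises and falls in complexes I, III, IV and V (2 of each, among members with at least 10 CPM; in complex V none of these averaged a rise), all of complex II, CYC1, CYCS, the 6 members with the smallest interaction p, and isoform pairs; from other lists, the 4 genes with the smallest average p are named. Other members named in the text, beyond that rule, were picked after their values were seen. Promoters of 250 bases were read from the RefSeq table of GRCh38.p14. For 1 member and 1 marker gene, values are in the fits and counts and are not reported individually here.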

Additional observations from a re-analysis of the deposited data

Results flagged for a closer look

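SDHD and NDUFA10 were noted because their response to icaritin differed between the lines by a test of the difference itself (edgeR interaction of line and treatment). SDHD had an adjusted p of 0.0113, with log2 fold changes of -0.20 in SNT-8, 0.21 in SNK-10 and -0.02 in SNT-16. Over the 18 fits that left out 1 replicate each, its adjusted p lay between 0.00172 and 0.0481, and on FPKM with limma it was 0.0721 to 0.131 over 3 settings. NDUFA10 had an adjusted p of 0.0340, with log2 fold changes of 0.26 in SNT-8, 0.28 in SNK-10 and 0.04 in SNT-16. With 1 replicate left out its adjusted p lay between 0.0168 and 0.0983, and on FPKM with limma between 0.333 and 0.431. No cause was tested for either gene.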

How the results depend on the processing

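Of 120 alternative values of the 29 main results, not counting left-out replicates, 101 stayed within the limits for a like value. The others were counts. Asking also for a 1.5-fold change left, in SNT-8, 1 member higher and 2 lower after icaritin; in SNK-10, 1 higher and 1 lower; in SNT-16, 1 higher and 1 lower; on the average, 2 higher and 1 lower; and between SNK-10 and the SNT lines under DMSO, 3 higher and 0 lower. In SNK-10, 4 members were higher by limma with no filter. In SNT-16, 8 were higher in the fit of that line alone and by limma with either pseudocount. The response differed between lines for 4 members with no filter, 1 with the replicate block and 1 in each of the 3 limma fits, where it was NDUFB6. With replicates left out in turn, the members higher and lower numbered 6 to 9 and 33 to 39 in SNT-8, 5 to 9 and 21 to 28 in SNK-10, 3 to 6 and 23 to 28 in SNT-16, 9 to 12 and 40 to 44 on average, and 8 to 13 and 28 to 36 between SNK-10 and the SNT lines; 1 to 6 differed in response. The ratio for complex V stayed within 0.853 to 0.865 in SNT-8, 0.824 to 0.845 in SNK-10 and 0.863 to 0.890 in SNT-16. Of 2996 repeated values of 28 named members, 2880 kept direction and call, 73 lost the call, 43 gained it and 0 reversed. DESeq2 lost 7 calls: NDUFS4 (adjusted p = 0.0503 in SNK-10 and 0.0537 in SNT-16), UQCR10 in SNK-10, COX7B in SNK-10 and SNT-16, SDHC on average and NDUFB6 in SNT-8. The cause was not tested. Same-numbered icaritin and DMSO libraries deviated together with correlations of -0.129 to 0.042, so the numbers were not taken as pairing the samples. With the replicate block, 39 members were lower in SNT-8, 26 in SNK-10, 28 in SNT-16 and 43 on average. SNK-10 against the SNT lines was not run with the block, which lies within a line. No scaling moved the median of all genes by more than 0.1. At this depth, members such as COX7A1 and UQCRHL are below the depth at which a change could be seen.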
